A study of Mus musculus with 6 samples.

Results

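Cst7, Cst3 and Cstb encode the 3 cystatins followed here in microglia sorted from the spinal cord of SOD1 G93A mice, a model of amyotrophic lateral sclerosis (ALS), a fatal loss of motoneurones. The genes were read by every probe set assigned to 1 of these symbols alone, which gave 4 probe sets of 45037 and 3 genes of 18193, with 1 probe set each for Cst7 and Cst3 and 2 for Cstb, a brighter and a dimmer one. Cst7 was picked from these same arrays for its large rise in SOD1 G93A microglia, so its values are given as a description without a test, whereas Cst3 and Cstb were tested. All 4 probe sets were kept whatever their signal.

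The series compares 2 groups of 3 arrays each, SOD1 G93A and WT, and genotype is the only factor. SOD1 G93A animals were high-copy transgenic males carrying human SOD1 with the G93A mutation (the line named B6SJL-Tg(SOD1-G93A)1Gur/J), and WT animals were male littermates without the transgene. Both were 90 days old, an early symptomatic age in this line, and neither group received any agent. Cells of the lumbar cord were sorted on CD11b, a surface integrin of microglia that is also carried by neutrophils, monocytes and natural killer cells, and each array held RNA pooled from at least 6 mice. A pool hides the spread between animals, and because the transgene is inherited in all tissues, microglia and their surroundings both carried it. Values are log2 signals, so 1 unit is a 2-fold difference.

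Cystatins are reversible, tight-binding inhibitors of papain-type cysteine proteases, most of which are lysosomal cathepsins. Stefins (type 1), such as cystatin B, lack a signal peptide and act in the cytosol and nucleus. Type 2 cystatins, such as cystatin C and cystatin F, are secreted, but cystatin F (Cst7) is restricted largely to blood and immune cells and can be delivered to lysosomes, where it acts on cathepsin C and related enzymes after processing to a monomer.

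Cst7 and Cst3 both lie on chromosome 2, with 10 protein-coding genes between them. The 250 bases before the start site of each are shown as RefSeq gives them (GRCm38.p6), while no such window was available for Cstb. These 2 related genes stand close together and had the unlike values described next. The Cst7 window is chr2:150570165-150570414 on the plus strand and the Cst3 window is chr2:148875513-148875762 on the minus strand. Both are written 5′ to 3′, and capitals mark the only matches found among 6 short motifs.
Cst7: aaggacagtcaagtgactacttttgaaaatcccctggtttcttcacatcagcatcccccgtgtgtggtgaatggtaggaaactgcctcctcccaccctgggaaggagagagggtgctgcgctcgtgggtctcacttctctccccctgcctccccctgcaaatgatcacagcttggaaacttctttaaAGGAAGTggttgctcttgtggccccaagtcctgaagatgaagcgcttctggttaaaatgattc
Cst3: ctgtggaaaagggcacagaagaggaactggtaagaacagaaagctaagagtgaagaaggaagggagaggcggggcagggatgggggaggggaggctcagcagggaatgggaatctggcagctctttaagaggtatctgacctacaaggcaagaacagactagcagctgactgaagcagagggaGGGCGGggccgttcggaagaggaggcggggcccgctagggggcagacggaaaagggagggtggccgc
All motifs were searched on both strands. The Cst7 window held 1 match to the letters AGGAAGT, a motif of ETS family factors, starting at base -63, and 7.69% of 32851 windows of the same length held that motif. The Cst3 window held 1 match to the letters GGGCGG, the GC box, starting at base -67, which 32.7% of windows held. The other motifs were in neither window. These were the letters TATAAA, known as the core of the promoter element bound by the general initiation machinery, in 12.4% of windows, and the letters CACGTG, which factors of the MiT/TFE family recognise, in 6.02%. The letters TGANTCA, recognised by Fos and Jun dimers, were in 6.75% of windows, and the letters TTGCNNAA, recognised by the C/EBP family, were in 9.56%. GC content was 51.6% in the Cst7 window and 59.6% in the Cst3 window, with a median of 52.4% over all windows.

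Cst7 transcript was far higher in SOD1 G93A microglia. Its log2 signal was 11.77, 12.39 and 12.66 on the SOD1 G93A arrays 1, 2 and 3, and 7.76, 7.99 and 8.08 on the WT arrays 1, 2 and 3. The lowest SOD1 G93A array stood 3.69 above the highest WT array, and array 1 was the lowest of its group in both genotypes. Means were 12.27 ± 0.46 in SOD1 G93A and 7.94 ± 0.16 in WT (SD, n = 3 each), a difference of 4.33 with a standard error of 0.21, or 20.1-fold. This was the largest positive difference of all 45037 probe sets, which is how the gene came to be chosen. The groups did not overlap at 24.7% of all probe sets, and nothing is read from the same property at Cst7. Averaged over the 6 arrays, its signal was above that of 95.7% of probe sets. In pooled sorted cells, more Cst7-expressing cells and more transcript per cell cannot be told apart.

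Cst3, which encodes the abundant secreted inhibitor cystatin C, gave no detectable difference. Its signal was 14.25, 14.17 and 14.28 on the SOD1 G93A arrays and 14.18, 14.20 and 14.16 on the WT arrays. The groups overlapped, since SOD1 G93A array 2 lay within the WT values. Means were 14.24 ± 0.058 in SOD1 G93A and 14.18 ± 0.017 in WT (SD, n = 3 each), a difference of 0.059 with a 95% confidence interval of -0.16 to 0.28 and a limma adjusted p of 0.810 over all probe sets. The interval corresponds to 0.893-fold to 1.21-fold. Cst3 ranked 9th of all probe sets by mean signal, close to the 14.51 to 14.59 reached by the brightest probe set of each array, and whether saturation compressed a change was not tested.

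Cstb, which encodes the cytosolic inhibitor cystatin B whose loss causes a progressive myoclonus epilepsy in humans and mice, was higher in SOD1 G93A microglia at both of its probe sets. At the brighter probe set the signal was 12.95, 13.03 and 12.996 on the SOD1 G93A arrays and 12.34, 12.20 and 12.08 on the WT arrays. At the dimmer one it was 9.48, 9.28 and 9.07 on the SOD1 G93A arrays and 7.99, 7.99 and 8.16 on the WT arrays. All SOD1 G93A arrays were above all WT arrays at both, with gaps of 0.62 and 0.91. Groups did not overlap at 24.7% of all probe sets. The difference at the brighter probe set was 0.79 (standard error 0.11, 95% confidence interval 0.54 to 1.04), or 1.73-fold, with means of 12.99 ± 0.038 in SOD1 G93A and 12.21 ± 0.13 in WT (SD, n = 3 each) and a limma adjusted p of 0.00799. The difference at the dimmer probe set was 1.23 (standard error 0.13, 95% confidence interval 0.94 to 1.52), or 2.34-fold, with means of 9.28 ± 0.20 in SOD1 G93A and 8.05 ± 0.10 in WT (SD, n = 3 each) and a limma adjusted p of 0.00279. Of all probe sets, 2.71% (1221) were higher in SOD1 G93A at an adjusted p under 0.05. The 2 probe sets read 1 gene and are not independent of each other.

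**Figure D1:**
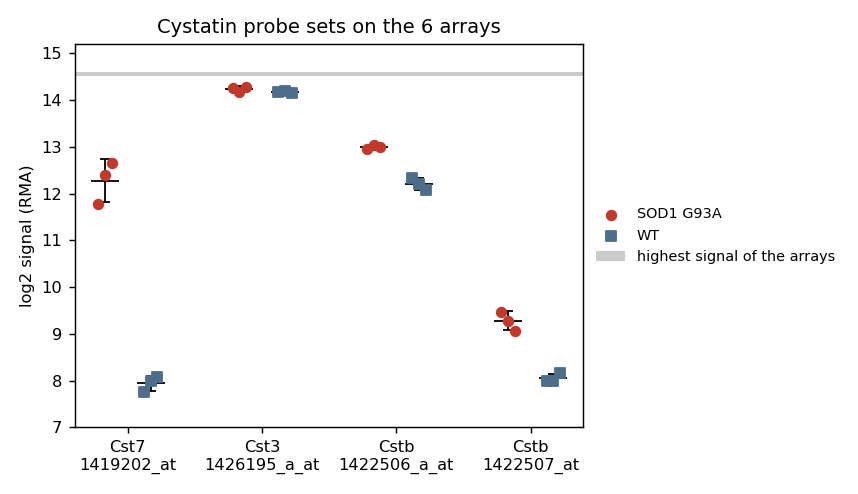
Log2 signal (vertical axis) of the 4 probe sets of Cst7, Cst3 and Cstb on each array, SOD1 G93A (circles) left of WT (squares). Black lines are the group mean and SD (n = 3 each), and the grey band is the range of the brightest signal per array (14.51 to 14.59). The genotypes are separated at Cst7 and at both Cstb probe sets, and overlap at Cst3 just under the band.

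The Cstb change (brighter probe set) minus the Cst3 change was 0.73 on the log2 scale. An exact two-sided permutation test over the 20 splits of the arrays gave p = 0.1, the smallest that 3 against 3 arrays allow, so this test could not reach 0.05, and any compression of the bright Cst3 signal would enter the value. The arrays also differed in a measure of RNA quality. The 3′ minus 5′ signal of Gapdh, which grows as RNA is degraded or copied short, was 4.12 ± 0.59 in SOD1 G93A and 4.89 ± 0.11 in WT (SD, n = 3 each), without overlap. The same measure of actin was 2.67 ± 0.72 in SOD1 G93A and 3.42 ± 0.49 in WT (SD, n = 3 each), and there the genotypes overlapped. With the Gapdh measure as a covariate the Cst7 difference was 3.78 and that of Cstb was 0.79 at its brighter probe set, where the limma adjusted p became 0.101. Of all probe sets, 129 passed with that covariate, against 2089 without it.

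Most other genes of the cystatin superfamily were weak and did not pass the test. Of 36 listed genes of the superfamily, 20 had a probe set of their own, and of the 19 besides Cst7, 1 was higher (Cstb) and 1 lower (Csta1) in SOD1 G93A, with each gene represented by its brightest probe set and adjusted over genes. Among all 18193 genes, 4.09% were higher and 2.53% lower. The median difference was -0.020 over the 19 genes and 0.022 over all genes. Of the 19, 15 had a mean signal below 7 and 11 below 5, the range of weak or undetected transcripts.

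Among the stefins, Csta1, an inhibitor related to human cystatin A, had a signal of 2.40, 2.45 and 2.41 in SOD1 G93A and 2.88, 2.73 and 2.86 in WT. The difference was -0.40 (limma adjusted p = 0.0494) at a level well below 5, where little transcript is measured. It did not pass without any 1 of the 6 arrays (adjusted p between 0.0874 and 0.152). Stfa3 differed by -0.66 (limma adjusted p = 0.0931) and Stfa2l1 by -0.46 (limma adjusted p = 0.0674), both mouse stefins that are prominent in neutrophils. Mouse stefins are near-identical copies, so signal may be shared between them, and a probe set assigned jointly to Cstdc5 and Stfa1 was lower, at 6.44, 6.45 and 6.39 in SOD1 G93A against 6.84, 7.13 and 7.46 in WT (difference -0.72, limma adjusted p = 0.0365 over probe sets). Without WT replicate 2 the Stfa3 difference was -0.91 (limma adjusted p = 0.0158).

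None of the 8 type 2 genes besides Cst7 passed, and 7 of them had mean signals below 5. After Cst3 the brightest on the list were Cst12, with a difference of 0.045 (limma adjusted p = 0.900), and Cstdc1, with 0.21 (limma adjusted p = 0.524). Cstdc2, a cystatin gene beside Cst3 that was not on the list, differed by 0.25 (limma adjusted p = 0.385). Of 7 proteins with cystatin domains outside those 2 types none passed, and the brightest were the neutrophil granule proteins Ngp and Camp and the plasma protein Hrg. Ngp signal was 13.30, 14.06 and 14.09 in SOD1 G93A against 13.81, 14.56 and 14.46 in WT. Camp signal was 12.58, 13.09 and 13.23 in SOD1 G93A against 12.84, 14.01 and 14.04 in WT. The genotypes overlapped for both, with array 1 lowest in each group, and the differences were -0.46 for Ngp (limma adjusted p = 0.339) and -0.66 for Camp (limma adjusted p = 0.262). Without WT replicate 1 the Camp difference was -1.06 (limma adjusted p = 0.0158). Hrg differed by 0.14 (limma adjusted p = 0.482).

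**Figure D2:**
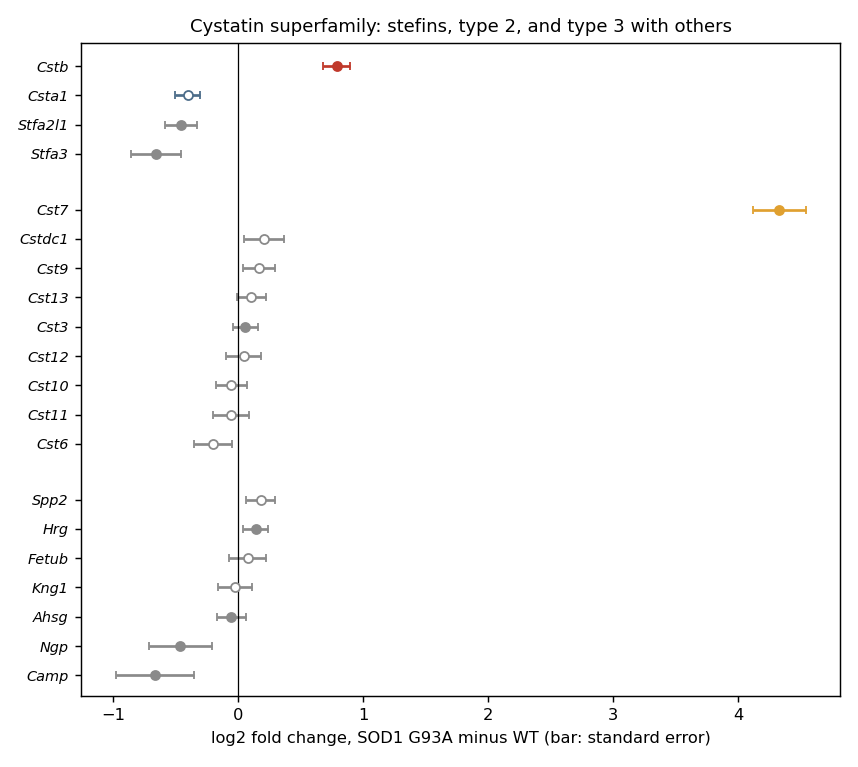
Log2 fold change, SOD1 G93A minus WT (horizontal axis), with its limma standard error for the listed and measured stefins (top), type 2 cystatins (middle) and other cystatin-domain proteins (bottom), each gene at its brightest probe set. Red marks a gene higher and blue a gene lower at a limma adjusted p under 0.05, grey neither, and yellow Cst7, which was not tested. Open symbols have a mean signal below 5. Cst7 stands at 4.33, Cstb at 0.79 and every other gene plotted at or below 0.21.

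The enzymes that cystatins bind were more often higher than lower. Of 11 papain-type cathepsins and legumain, 4 were higher in SOD1 G93A and 0 lower by limma, where 4.09% of all genes were higher and 2.53% lower. Of the 11 differences 10 were positive, as were 54.4% of those of all genes, and the median was 0.34, with 0.022 for all genes. Cathepsins Z, L and B are lysosomal proteases of phagocytes. Ctsz signal was 12.50, 13.08 and 13.35 in SOD1 G93A against 11.33, 11.99 and 11.34 in WT. Ctsl signal was 12.43, 12.57 and 12.93 in SOD1 G93A against 11.31, 11.82 and 11.32 in WT. Ctsb signal was 13.78, 13.97 and 14.05 in SOD1 G93A against 12.80, 13.09 and 12.87 in WT. The groups did not overlap for any of these, as at 24.7% of all probe sets, and WT array 2 was the highest WT array in each. The limma differences were 1.42 for Ctsz (adjusted p = 0.0128), 1.16 for Ctsl (adjusted p = 0.00886) and 1.02 for Ctsb (adjusted p = 0.00348).

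The other probe sets of these genes mostly moved with the brightest. All 3 of Ctsz, both of Ctsl and 4 of 5 of Ctsb passed over probe sets. The 4 of Ctsb differed by 0.90 to 2.35, the brightest at 1.02, and the remaining Ctsb probe set by 0.22 (limma adjusted p = 0.446). Ctsf, encoding cathepsin F, was higher by 0.80 at its brighter probe set (limma adjusted p = 0.0347), while its other probe set differed by -0.13 (limma adjusted p = 0.639), and the mean of both by 0.33 (limma adjusted p = 0.172). The Ctsf call did not hold without SOD1 G93A array 2 or 3 or any 1 WT array (adjusted p 0.0501 to 0.110), nor the Ctsz call without SOD1 G93A array 2 or 3 or WT array 3 (adjusted p 0.0547 to 0.0614). None of the 4 passed with the Gapdh 3′ minus 5′ signal as a covariate (limma adjusted p 0.0832 to 0.407). That measure did not overlap between genotypes, and with it 94 of all genes passed, against 1206 without it. Losing a call there was therefore not particular to these 4 genes. With the covariate the differences were 0.83 for Ctsb, 0.78 for Ctsl, 0.87 for Ctsz and 0.37 for Ctsf. The part of RNA quality in these differences was not tested further.

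Ctsc, Ctsl, Ctsh and Lgmn were followed as partners of cystatin F, and of these Ctsl passed at its brightest probe set. Ctsc, which encodes cathepsin C, an activator of granule serine proteases, had a signal of 13.20, 13.04 and 13.26 in SOD1 G93A and 13.02, 13.13 and 12.93 in WT. The groups overlapped, and the difference was 0.14 (limma adjusted p = 0.536). Ctsh differed by 0.34 at its brighter probe set (limma adjusted p = 0.132) and by 0.66 at the other, which passed over probe sets (limma adjusted p = 0.0401). Lgmn, encoding legumain, an asparaginyl endopeptidase inhibited by several type 2 cystatins, differed by 0.56 (limma adjusted p = 0.0967). Its signals were 12.42, 12.51 and 12.85 in SOD1 G93A against 11.80, 12.37 and 11.94 in WT. These did not overlap, as was so at 24.7% of all probe sets.

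Cathepsins outside the cysteine class, which cystatins do not inhibit, also changed. Of 4 measured, 2 were higher and 1 lower, where 4.09% of all genes were higher and 2.53% lower. The remaining gene, Ctse, did not pass, with a difference of 1.16 at its brighter probe set (limma adjusted p = 0.0552). Its dimmer probe set differed by 0.081 (limma adjusted p = 0.832 over probe sets). The serine carboxypeptidase gene Ctsa was at 12.37, 12.59 and 12.81 in SOD1 G93A and 11.35, 11.49 and 11.45 in WT, a difference of 1.16 (limma adjusted p = 0.00280), while its dimmer probe set differed by 0.092 (limma adjusted p = 0.780) and the mean of both by 0.62 (limma adjusted p = 0.0131). Ctsd, encoding the main lysosomal aspartic protease, was at 13.64, 13.59 and 13.71 in SOD1 G93A and 12.96, 13.02 and 12.97 in WT, a difference of 0.67 (limma adjusted p = 0.00737). The genotypes did not overlap for either, as at 24.7% of all probe sets. Of 6 serine proteases of leukocyte granules matured by cathepsin C, 2 were lower and 0 higher by limma: Prtn3, encoding proteinase 3, at 7.72, 8.07 and 8.17 in SOD1 G93A against 8.70, 9.54 and 9.95 in WT (difference -1.41, limma adjusted p = 0.0227), and Ctsg, encoding cathepsin G, which counts in both lists, with a difference of -0.84 (limma adjusted p = 0.0464). The Prtn3 call did not hold without SOD1 G93A array 2 or 3 or WT array 2 or 3 (adjusted p 0.0678 to 0.0807), nor the Ctsg call without any 1 SOD1 G93A array or WT array 2 or 3 (adjusted p 0.0510 to 0.155) or after centring arrays on their medians (adjusted p 0.0508). With the Gapdh covariate none of these 4 calls held, at 0.87 for Ctsa (limma adjusted p = 0.0557), 0.61 for Ctsd (0.133), -1.78 for Prtn3 (0.0976) and -1.25 for Ctsg (0.0757). Over all genes, 94 passed with that covariate and 1206 without it, so these losses were not particular to the 4 genes.

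**Figure D3:**
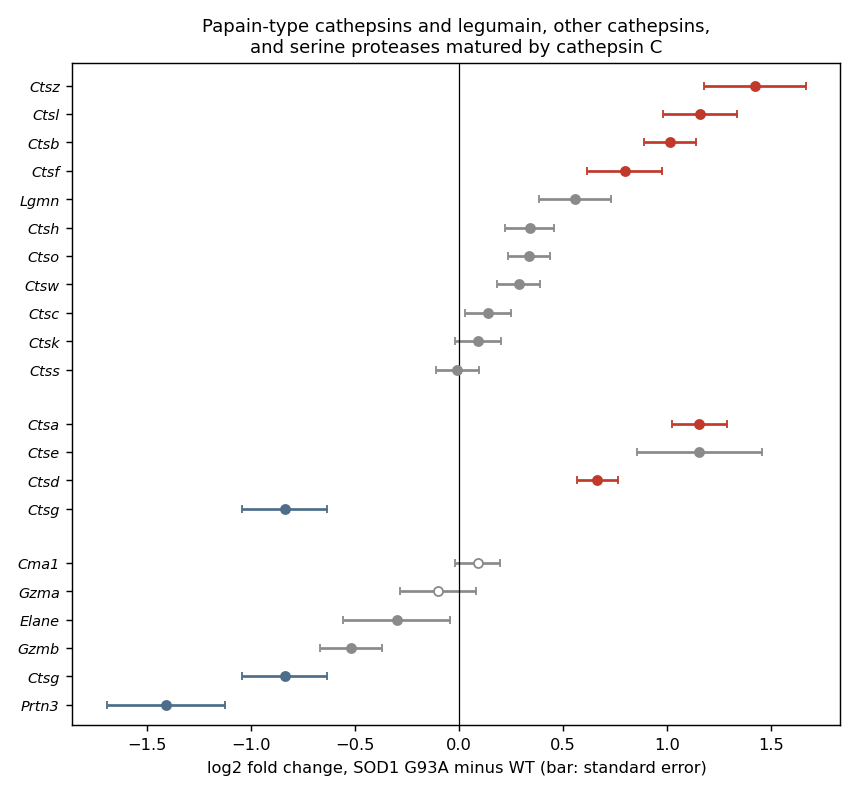
Log2 fold change, SOD1 G93A minus WT (horizontal axis), with its limma standard error for papain-type cathepsins and legumain (top), other cathepsins (middle) and serine proteases matured by cathepsin C (bottom), each gene at its brightest probe set. Red marks genes higher and blue genes lower at a limma adjusted p under 0.05 over genes, grey neither, and open symbols a mean signal below 5. Ctsz (1.42), Ctsl (1.16), Ctsb (1.02) and Ctsf (0.80) lead the cysteine enzymes, and Prtn3 (-1.41) is lowest.

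Other cells that carry Cst7 or CD11b were followed through marker lists in the same arrays. At the same threshold, 4.09% of all genes were higher and 2.53% lower. Microglial markers were abundant, with 1 of 9 higher (Fcrls) and 1 lower (Sall1), and a summed log2 signal of 15.94 to 16.07 in SOD1 G93A and 15.78 to 15.93 in WT, ranges that just failed to overlap. Only 3 of the 9 differences were positive, at Fcrls (1.07), C1qa (0.47) and Aif1 (0.34), and the median was -0.033. Of 10 natural killer and cytotoxic T cell markers 0 were higher and 1 was lower (Klrd1), all had mean signals below 7, the defining genes Ncr1, Prf1 and Cd3e included, and the sum was 8.76 to 8.88 in SOD1 G93A against 9.08 to 9.37 in WT. Conventional dendritic cell markers (0 of 7 higher, 1 lower, sum 8.56 to 8.60 against 8.69 to 8.94 in WT) and mast cell and eosinophil markers (0 of 6 higher or lower, sum 7.43 to 7.72 against 7.64 to 7.86 in WT) also had mean signals below 7 throughout. The lower natural killer sum went with Klrd1 (-1.79), while 3 of 10 differences were positive, and the lower dendritic sum went with Clec10a (-0.83), while 5 of 7 were positive, with a median of 0.040. The part of such cells in the Cst7 difference was not tested.

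Markers of neutrophils were bright in both genotypes, with 0 of 10 higher and 1 lower (Cxcr2). Still, 0 of the 10 differences were positive, with a median of -0.59. The sum was 15.7 to 16.3 in SOD1 G93A against 16.1 to 16.8 in WT. Of 7 markers of monocytes and border macrophages 0 were higher and 5 lower, where 4.09% of all genes were higher and 2.53% lower. Of the 7 differences 0 were positive, with a median of -0.84. Their sum was 11.3 to 11.8 in SOD1 G93A against 12.4 to 12.6 in WT, separate between genotypes. Markers of astrocytes (3 of 10 lower, sum 10.3 to 11.0 in SOD1 G93A against 11.3 to 12.3 in WT), oligodendrocytes (2 of 5 lower, sum 13.1 to 13.3 against 13.8 to 14.5 in WT) and neurones (2 of 6 lower, sum 8.14 to 8.55 against 9.38 to 9.62 in WT) had 0 higher genes. Prtn3, Ctsg, Csta1 and the probe set of Cstdc5 and Stfa1 were also lower, and the part of these lists in those differences was not tested.

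Genes with the most similar profiles were sought by the root mean square difference of log2 values over the 6 arrays, each gene centred on its own mean. For Cst7 these were Igf1, an insulin-like growth factor, at a distance of 0.404, Ch25h, an enzyme that hydroxylates cholesterol, at 0.471, and Fam20c, a kinase of the secretory pathway, at 0.608. With each singly named gene at its brightest probe set, they also had the next largest rises after Cst7, with differences of 3.66, 3.47 and 3.18; 2 probe sets left out by that choice, 1 with no symbol and a dimmer one of Lpl, rose more than that of Igf1. Igf1 signal was 10.03, 10.25 and 10.20 in SOD1 G93A and 6.16, 6.68 and 6.67 in WT. Because the measure uses the same contrast that chose Cst7, the likeness is a description only.

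**Figure D4:**
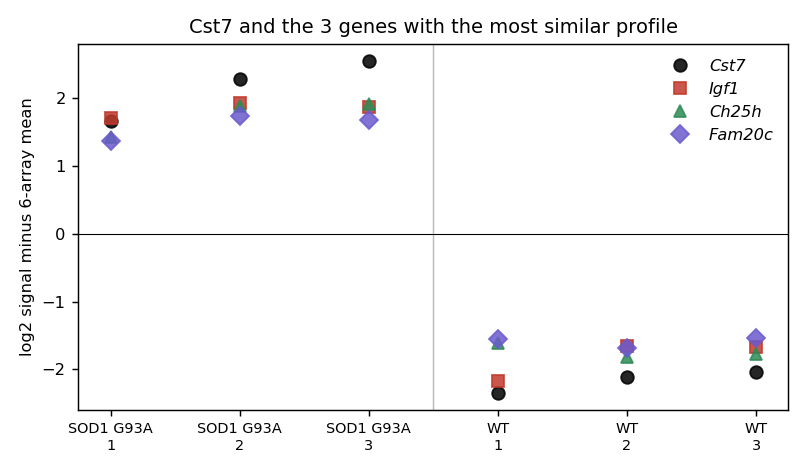
Log2 signal minus the mean of the 6 arrays (vertical axis) for Cst7 and the 3 genes closest to it, on the 3 SOD1 G93A arrays (left) and the 3 WT arrays (right). Cst7 and the others lie together above 0 in SOD1 G93A and below 0 in WT. Cst7 is farthest out on every WT array and on arrays 2 and 3 of SOD1 G93A.

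The closest genes to Cstb (brighter probe set) were Arhgap24 at 0.0547, Rftn1, encoding a lipid-raft protein, at 0.0635, and Vkorc1, encoding the vitamin K epoxide reductase, at 0.0644, with differences of 0.81, 0.71 and 0.87 between genotypes. Those closest to the flat profile of Cst3 were Aldh1l1 (0.0131), Edrf1 (0.0172) and Adck2 (0.0183), with differences of 0.064, 0.070 and 0.064.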

How the data were processed

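Each of 6 oligonucleotide arrays measured RNA of a pool of CD11b-sorted lumbar cord cells. The authors deposited log2 signals, made with RMA in Partek per the labels, whereas the study's methods describe another scaling, so array differences in amplification or scaling could shift weak and bright probe sets. Of 45101 probe sets, 64 controls were left out. Probe sets were named from the platform annotation (34945 with 1 symbol, 932 with several, 9160 with none). Array medians were 5.93 to 5.97, and the number of arrays limits precision. Principal component 1 (46.4% of variance) separated genotypes, and component 2 (28.0%) set both arrays numbered 1 apart.

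limma 3.58.1 (R 4.3.3; lmFit and eBayes) compared 3 with 3 arrays, with Benjamini-Hochberg adjustment over 45037 probe sets, or over 18193 genes for gene lists (brightest probe set each), a threshold of 0.05 and no filter. A check on simulated data used independent noise for each probe set, so it does not bear on differences between whole arrays. Exact permutation enumerated all 20 splits of the arrays with numpy 2.4.6, and scipy 1.17.1 was used for the confidence intervals. Pools are separate samples in the labels, so p-values measure the spread between pools. Members and lists were chosen with earlier results of these data known. The text names all member probe sets, genes of each inhibitor or protease list that passed or, where none did, its 3 brightest, the known cystatin F partners, and the 3 nearest profiles per member. Alternatives were another test, variance model, scaling, array weights, a replicate block, signal filters, other probe set choices, a Gapdh covariate and leaving out arrays. Promoter windows came from a RefSeq table.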

Additional observations from a re-analysis of the deposited data

How the results depend on the processing

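Of the alternatives run, none reversed Cst3 or Cstb. Cst7 was picked for its rise in these same arrays, so its values under the alternatives are a description only. The Cst7 difference was 4.33 and lay between 4.14 and 4.58 without any 1 array, but was 3.78 with the Gapdh covariate. Cst3 stayed between 0.023 and 0.091 in 16 alternatives without passing (adjusted p 0.584 to 0.965, limma or the methods' t-test). Cstb kept its call without any 1 array, at 0.72 to 0.87 for the brighter probe set and 1.10 to 1.47 for the dimmer over all alternatives. Its call ended under the methods' t-test (0.79, adjusted p = 0.273, and 1.23, adjusted p = 0.258) and, for the brighter probe set, with the Gapdh covariate (0.79, adjusted p = 0.101). That t-test, in which each probe set has its own variance, called 0 probe sets after adjustment and 5697 at an unadjusted p under 0.05 (795 of them also past the fold threshold of the study's methods), where limma called 2089 and 8767. The Cstb minus Cst3 change was 0.67 to 0.95 over 8 alternatives.

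The count of called cystatin genes was 2 of 19, and became 0 with the methods' t-test or the Gapdh covariate. It was 1 with median-centred arrays or without probe sets of suffixed names where others existed, and 1 to 2 without 1 array. It was 3 (1 higher, 2 lower) with array weights, the mean of all probe sets or without both arrays numbered 1. With a mean signal of at least 5 or 7 it was 1, of only 8 or 4 genes left. Those filters removed Csta1 (mean signal 2.62), which was therefore not tested there. Of all genes, 1206 were called in the main comparison, 0 with the t-test and 94 with the Gapdh covariate. Median-centred arrays gave 1274 and array weights 1819. The count of called cysteine proteases was 4, 0 with the t-test or the Gapdh covariate, and 2 to 4 without 1 array. All probe sets called numbered 129 with the Gapdh covariate, 3549 with array weights and 3796 without both arrays numbered 1, and 585 without SOD1 G93A array 2, 479 without array 3, 655 without WT array 2 and 553 without WT array 3, but 1914 without SOD1 G93A array 1 and 2195 without WT array 1. The cause was not tested.

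The study's methods report litter-matching between the groups, without saying which arrays were matched. Same-numbered arrays gave no clear pairing: their deviations correlated at 0.444, 0.240 and 0.029. SOD1 G93A arrays 1 and 2 each correlated best with the WT array of their own number, but SOD1 G93A array 3 with WT array 2 (0.400). A replicate block moved the called cystatin genes to 6 (1 higher, 5 lower) and all called probe sets to 4519, and changed no call of Cst3 or Cstb.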

Other observations

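The nearest measured genes on either side of the 3 cystatin genes, a choice made after the data were seen, were mostly level. None of the 3 before or the 3 after Cst7 on chromosome 2 passed, and the largest difference was 0.45 at Apmap, with signals of 9.39, 9.73 and 9.94 in SOD1 G93A against 8.995, 9.39 and 9.33 in WT (limma adjusted p = 0.152). None of the 6 around Cst3 passed either, with differences of -0.065 to 0.25. Around Cstb on chromosome 10, 2 of 6 were higher, where 4.09% of all genes were higher. Rrp1, a ribosomal RNA processing gene, was at 9.24, 9.36 and 9.47 in SOD1 G93A and 8.75, 8.90 and 8.85 in WT, a difference of 0.52 (limma adjusted p = 0.0271). Ilvbl was at 8.80, 8.75 and 8.99 in SOD1 G93A and 8.28, 8.16 and 8.16 in WT, a difference of 0.65 (limma adjusted p = 0.0129). The Rrp1 call did not hold without SOD1 G93A array 2 or 3 or any 1 WT array (adjusted p 0.0582 to 0.110), nor the Ilvbl call without SOD1 G93A array 3 or WT array 2 or 3 (adjusted p 0.0540 to 0.0597) or by the mean of its probe sets (adjusted p 0.0807), and neither held with the Gapdh covariate. Over all genes, 94 passed with that covariate and 1206 without it.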
